A study of Mus musculus with 9 samples.

Results

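The media of wire-injured mouse femoral arteries, collected 14 days after injury, was compared with the media of sham-operated arteries across the 16315 genes of their table. The members are 6 of the 9 libraries of the series: 3 labelled sham control and 3 labelled post injury day 14, chosen by those labels. Both groups were arteries of C57BL/6 mice with no genotype change named in the labels. The labels give citrate buffer as the vehicle of the study and do not say which mice received it, and they give no day for the sham arteries. The third group, injured arteries of mice given an inhibitor of focal adhesion kinase (FAK), is not used here. The labels describe a dissection under the microscope that took off the outer coat and its fat, followed by a flush of lysis reagent through the vessel to remove its lining and adherent leukocytes, so the smooth muscle layer was meant to remain. The replicates carry numbers, but nothing says that they came from separate animals, and the p-values below reflect only how far these libraries differ among themselves, a spread that may be technical. The labels do not say whether a library pools animals: transcripts of Xist, made from the inactive X of females (2548 to 10544 normalised counts), and of the Y-linked Ddx3y (818 to 1729) were both found in every library.

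The media of a muscular artery is built of smooth muscle cells held between elastic sheets. In the healthy wall these cells are contractile: serum response factor (SRF) and its coactivator myocardin drive actin, smooth muscle myosin and their regulators from promoters that carry CArG boxes. Drawing a wire through the vessel strips the endothelium and stretches the media, and in the weeks that follow smooth muscle cells can lose contractile proteins, divide, migrate and secrete matrix, while leukocytes enter the wall and a neointima forms. The comparison asks which transcripts differ between the wall after injury and the wall after a sham operation.

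Between 14672571 and 19251440 reads were recovered per library, and replicates of a group correlated at 0.981 to 0.987 in sham and 0.959 to 0.972 in injured arteries (Pearson's r of log2 values across genes). In a principal component analysis of 1000 genes with the highest variance, component 1 (87.8% of the variance) separated the groups. Component 2 (5.16%) set sham 3 and injured 2 at one end. These were also the highest libraries of their groups on 25 skeletal muscle genes, which took 0.118, 0.106 and 0.261% of the library total in sham 1, 2 and 3 and 0.465, 3.95 and 0.264% in injured 1, 2 and 3. Several results are therefore given also without both. Per exon length, the smooth muscle genes Acta2 and Myl9 ranked 5th and 8th of all genes in sham arteries. These ranks show abundant smooth muscle RNA there, not that the samples were media alone. On the same scale the skeletal muscle gene Acta1 lay above Acta2 in injured 2 (3015 against 1850) and below it in every other library. Adipocyte markers took 0.297, 0.261 and 0.669% of the total in sham 1, 2 and 3 and 0.498, 0.231 and 0.514% in injured 1, 2 and 3. Endothelial genes were not at 0 after the rinse, at 0.269, 0.226 and 0.335% of the total in sham and 0.373, 0.454 and 0.515% in injured arteries.

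Of 16278 genes tested, 6076 were called at an adjusted p under 0.05 (37.3%), 3346 higher in injured arteries (20.6%) and 2730 lower (16.8%). The groups did not overlap in 8348 genes (51.3%). Values are normalised counts, meaning reads divided by 1 size factor per library, and fold changes are on the log2(normalised count + 1) scale with standard errors. Large changes were mostly rises: 1254 called genes were at least 4-fold higher and 297 at least 4-fold lower. At 8-fold the counts were 612 and 117. The median difference over all genes was -0.00 on the log2 scale. Replicates spread more after injury, with a larger log2 SD among injured libraries for 65.4% of genes. Without sham 3 and injured 2 together 4142 genes were called, and leaving out 1 library gave between 4350 (without sham 2) and 7312 (without injured 3). For 3015 genes (18.5%) the 95% interval of the difference lay within 0.5 log2 of no change.

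**Figure D1:**
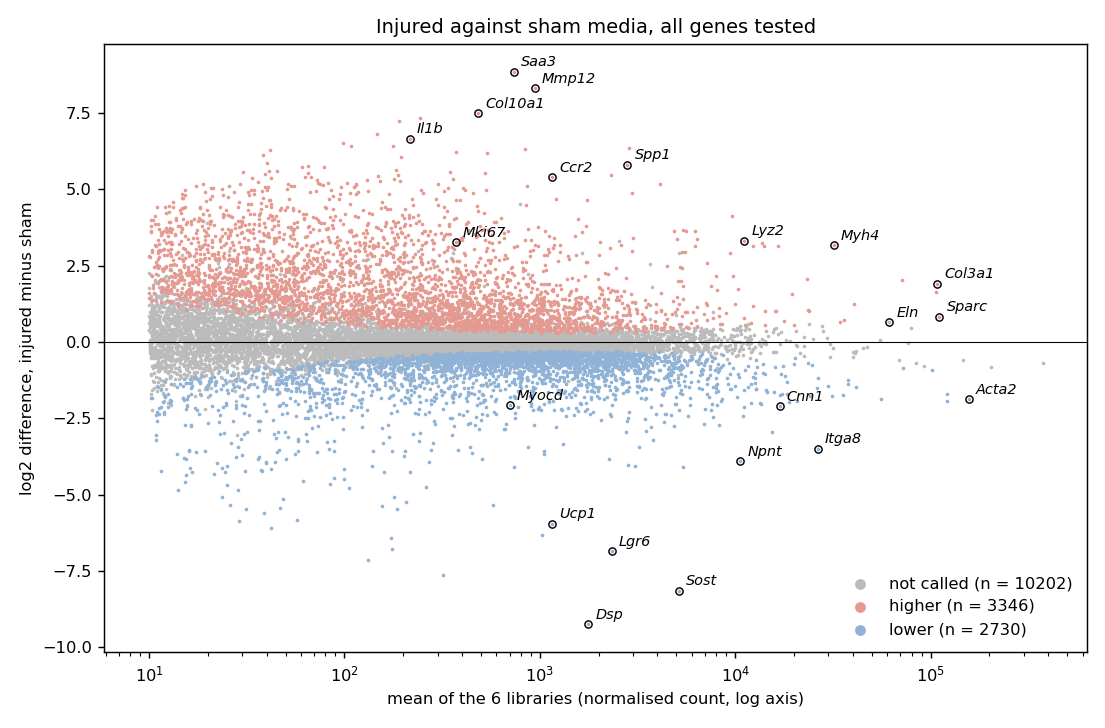
Log2 difference (injured minus sham, vertical axis) against the mean normalised count of the 6 libraries (log axis) for the 16278 genes tested, coloured by call, with named genes ringed. More of the called genes lie 4-fold or further above 0 (1254) than below it (297), and Dsp and Sost lie lowest.

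Contractile genes were lower as a group. Of 25 contractile filament and dense body genes 20 were called lower, against 16.8% of all genes, and none higher, with a median of -1.47, and the list's share of the library total went from 6.62% ± 0.87 to 2.47% ± 0.25 (SD, n = 3 each). In a bulk sample, fewer cells of a type and less RNA per cell cannot be told apart. Acta2, the alpha actin of smooth muscle (chromosome 19 of GRCm38, 34241090 to 34255590, as are all coordinates here), was at 262314, 277579 and 198881 in sham and at 61488, 69382 and 68237 in injured arteries. Every injured library lay below every sham library, and the fall was 1.88 ± 0.29 (adjusted p = 0.00126). Per exon length it went from rank 5 to rank 13 of all genes, with Myl9, the regulatory light chain, going from 8 to 21 and Myh11, the smooth muscle heavy chain, from 18 to 88.

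The steepest fall in this list was that of Cnn1, calponin, a brake on actomyosin, at 28961, 30815 and 22479 against 5794, 6798 and 6295 (-2.11 ± 0.16, adjusted p = 4.72e-05). Lmod1, which nucleates smooth muscle actin filaments, fell by 2.05 ± 0.14, and Smtn, smoothelin, by 1.92 ± 0.17. Flna, the actin crosslinker filamin A, fell by 1.71 ± 0.28 and, among genes called lower, lost the most counts after Acta2 and Myh11. Tns1 (tensin 1, which ties integrins to actin) and Dstn (destrin, which severs actin filaments) were also among the 10 largest losses of genes called lower, falling by 1.73 ± 0.17 and 1.76 ± 0.17. Vim, vimentin, often read as a gene of synthetic cells, fell with them, by 0.85 ± 0.21 (adjusted p = 0.0144). Its call was lost without sham 1 (-0.86), without sham 2 (-0.80), or without sham 3 and injured 2 together (-0.87). Members not called included Tpm1, Des, Synm and Ldb3. Des, desmin, also made by skeletal muscle, was at 5024, 6543 and 4309 in sham and 5188, 12142 and 3273 in injured arteries. It was highest in injured 2, the library with the most skeletal muscle RNA, whose part in this value was not tested. Leaving out 1 library gave 19 to 22 lower calls, and 21 without sham 3 and injured 2.

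A CArG box, the 10-base element bound by SRF, lies within 250 bases before to 50 after the start in 5 of 25 RefSeq promoter windows of the list (20%, 21 of its 25 genes matched), against 1.63% of all 32851 windows. The bases before the start of 2 called members, with the CArG box in capitals, show where it sits (RefSeq, GRCm38.p6; Myl9 at chr2:156775214-156775463 and Vcl at chr14:20929148-20929397, both plus strand):
Myl9: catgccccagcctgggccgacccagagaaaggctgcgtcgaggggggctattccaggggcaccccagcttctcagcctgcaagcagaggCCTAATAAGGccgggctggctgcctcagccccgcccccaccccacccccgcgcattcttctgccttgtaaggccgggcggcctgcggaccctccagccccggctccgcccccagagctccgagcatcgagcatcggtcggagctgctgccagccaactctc
Vcl: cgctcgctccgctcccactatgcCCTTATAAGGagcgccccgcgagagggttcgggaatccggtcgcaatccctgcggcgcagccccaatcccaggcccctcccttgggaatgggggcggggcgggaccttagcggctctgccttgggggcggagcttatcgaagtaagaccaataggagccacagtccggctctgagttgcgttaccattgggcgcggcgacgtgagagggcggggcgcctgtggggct
The box begins 161 bases before the start in Myl9 and 227 in Vcl, the gene of vinculin, which fell by 1.33 ± 0.40 (adjusted p = 0.029). Vcl was at 3663, 3875 and 3321 in sham and spread to 700, 1617 and 2596 after injury. A match is a description of these letters, and a window without one says nothing of the factor. Windows of the genes called higher held a box in 1.28% of cases and those of genes called lower in 1.84%.

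The transcription factors of the smooth muscle state were lower too, 13 of 22, with 2 higher and a median of -0.86. Myocd, myocardin (chromosome 11, 65176561 to 65269989), was at 1144, 1167 and 1039 in sham and 164, 282 and 402 in injured arteries, a fall of 2.07 ± 0.28 (adjusted p = 0.000685). The injured values spread more than the sham values and did not overlap them. Csrp2, a LIM protein of smooth muscle, fell by 2.13 ± 0.16, Fhl1, another LIM protein, by 1.95 ± 0.15, and Meis1, a homeobox factor, by 1.51 ± 0.14. The members that rose were Fhl2, a LIM cofactor that responds to RhoA signals, at 296, 280 and 306 against 813, 732 and 769 (1.39 ± 0.11), and Klf4, a factor known to repress contractile genes. Klf4 was at 1780, 1387 and 1982 against 4464, 2836 and 2235 (0.84 ± 0.25, adjusted p = 0.0272), and its call was lost without sham 1 (0.88), without sham 2 (0.70), or without sham 3 and injured 2 together (1.01).

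Ion channels and calcium handling followed, with 17 of 25 lower and 3 higher (median -0.73). Kcnmb1, the subunit that makes the BK potassium channel sensitive to calcium sparks, fell by 2.36 ± 0.13 (adjusted p = 1.37e-05), while Kcnq5 fell by 2.14 ± 0.25 and Kcnab1, both of voltage-gated channels, by 1.80 ± 0.17. Ano1, the calcium-gated chloride channel, fell by 1.70 ± 0.21. Trpc6, a receptor-operated cation channel, went the other way, at 16.4, 17 and 23.1 in sham and 76.8, 93.8 and 121 in injured arteries (2.30 ± 0.28, adjusted p = 0.00042). Casq2, a calcium store protein also of striated muscle, rose by 1.39 ± 0.26, beside the skeletal muscle RNA above, whose part was not tested.

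Vasoactive receptors divided. Of 25 genes of receptors and cyclic nucleotide signalling, 12 were lower and 6 higher (median -0.79). Adra1d, an alpha-1 adrenergic receptor, was at 1019, 761 and 712 in sham and 69.9, 59.2 and 67.4 in injured arteries, a fall of 3.63 ± 0.18 (adjusted p = 1.1e-05). Ptgis, which makes prostacyclin, fell by 2.73 ± 0.14. Npr1, the receptor of atrial natriuretic peptide, fell by 2.04 ± 0.11, and Gucy1b1, a subunit of the guanylyl cyclase that senses nitric oxide, by 2.08 ± 0.19. The receptors of endothelin and angiotensin II, peptides that constrict arteries, were higher. Ednra was at 451, 588 and 446 against 1268, 1234 and 2031 (1.58 ± 0.21), Ednrb rose by 1.90 ± 0.24 and Agtr1a by 2.01 ± 0.29. The other 3 that rose bind relaxing signals: Ptger4 and Ptgir, receptors of prostaglandin E2 and prostacyclin (1.36 ± 0.21 and 1.00 ± 0.18), and Adora2a, of adenosine (0.93 ± 0.21). Adora2a lost its call without sham 3 and injured 2 together (0.80).

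**Figure D2:**
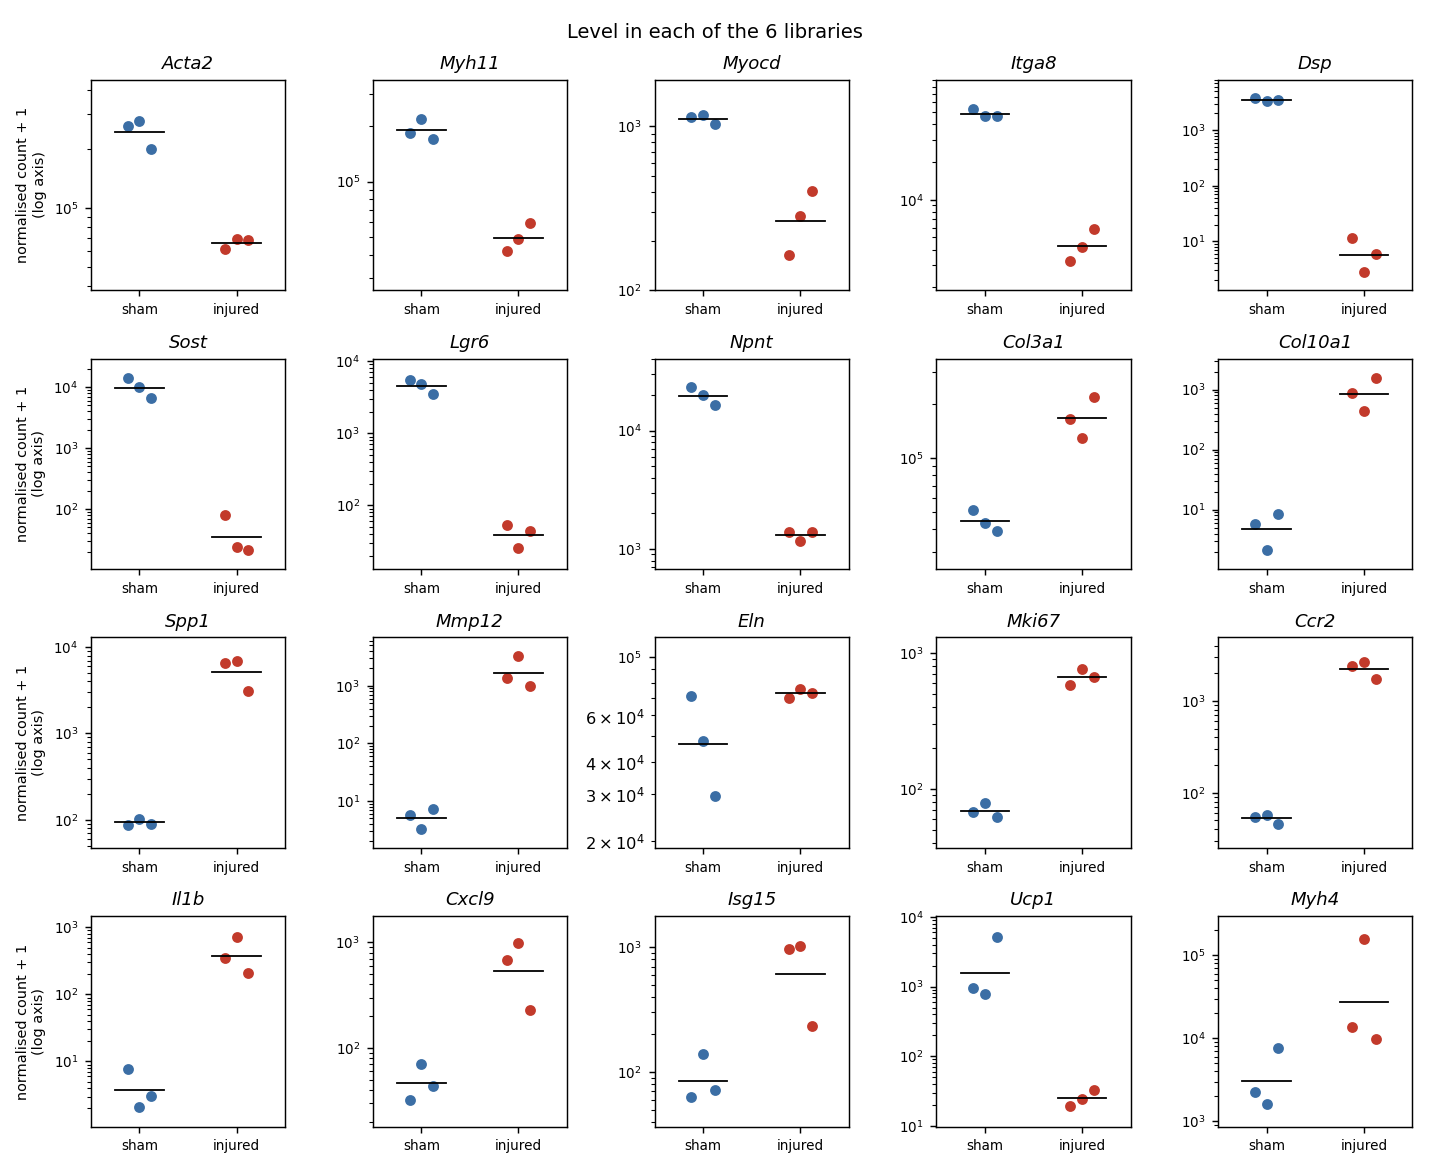
Normalised count + 1 (log axis) of 20 genes in each of the 3 sham (blue) and 3 injured (red) libraries; a bar marks the mean of log values. The groups are apart in 19 panels and overlap in Eln, where sham 1 lies among the injured libraries.

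Several of the deepest falls were in genes at high level in sham media. Dsp, desmoplakin, the plaque protein of desmosomes (chromosome 13, 38151294 to 38198577), was at 3771, 3348 and 3451 in sham and 10.3, 1.82 and 4.93 in injured arteries, a fall of 9.26 ± 0.43 (adjusted p = 1.02e-05). Sost, sclerostin, a secreted Wnt antagonist known from osteocytes (chromosome 11, 101962458 to 101967015), was at 14129, 9898 and 6680 against 77.9, 22.8 and 20.6 (-8.15 ± 0.48). Lgr6, a receptor of R-spondins, which raise Wnt signalling (chromosome 1, 134983301 to 135105276), was at 5524, 4775 and 3549 against 51.6, 24.6 and 42.8 (-6.87 ± 0.27). In each of these genes every injured library lay far below every sham library.

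Other genes among the 10 largest falls (of called genes without overlap whose mean reached 100) were lower in level. 2210407C18Rik (chromosome 11, 58608204 to 58616075) and the olfactory receptor gene Olfr224 (58565856 to 58570553) lie 37650 bases apart on the same strand. They were at 669, 499 and 750 and at 388, 335 and 327 in sham arteries, and both at 2.29, 1.82 and 2.47 in injured arteries, falls of 7.63 ± 0.27 and 6.78 ± 0.27. Each had 7 reads in all injured libraries, and with so few reads the pseudocount weighs on the fold. Gal3st3, a sulfotransferase, fell by 6.42 ± 0.29. Ppef1, a phosphatase, fell by 5.46 ± 0.47. Tceal6 was at 296, 284 and 210 in sham and at 2.29, 0.91 and 0 after injury, which is 3 reads over the 3 libraries, too few for a fold. Ucp1, also among the 10, belongs to brown fat and is described with the other cell types.

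Integrins, the receptors that bind matrix, changed in both directions. Of 25 subunits 12 were higher and 8 lower. Itga8, a receptor chain for nephronectin and fibronectin (chromosome 2, 12106632 to 12301922), was at 52679, 46324 and 46230 in sham and 3262, 4155 and 5821 in injured arteries, a fall of 3.49 ± 0.21 (adjusted p = 1.83e-05). It carried the largest counts of any integrin in sham and was among the 10 largest losses of genes called lower. Its ligand Npnt, nephronectin (chromosome 3, 132881745 to 132950291), was at 23323, 19835 and 16434 against 1382, 1178 and 1385 (-3.91 ± 0.15). The other subunits that fell were Itga9 (-2.22 ± 0.17), Itga7, Itga3, Itga5, Itgb5, Itgb3 and Itgb1 (-0.76 ± 0.17). Itgb1, the common beta chain, was at 34841, 31351 and 27459 against 16615, 18431 and 20074. The leukocyte subunits rose, Itgax by 5.58 ± 0.42, Itgb2 by 3.92 ± 0.25, Itgam by 3.88 ± 0.33 and Itgal by 3.79 ± 0.54. The rises were not confined to these: Itga11 rose by 2.32 ± 0.25, Itga6 by 2.00 ± 0.20 and Itgb4 by 0.84 ± 0.19. Ptk2, the gene of FAK (chromosome 15, 73205102 to 73423280), was at 1032, 977 and 1012 in sham and 1179, 1157 and 1349 in injured arteries. The groups did not overlap, but the difference of 0.28 ± 0.11 (95% interval 0.04 to 0.53) did not pass (adjusted p = 0.0684).

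Among 22 cell junction genes 10 were lower and 8 higher, against 16.8 and 20.6% of all genes. Without sham 1 the counts were 6 and 5, and without sham 3 and injured 2 they were 6 and 6. Beside Dsp, the plakophilin-related Pkp4 fell by 2.02 ± 0.13 and Ctnna3, an alpha catenin of muscle, by 1.66 ± 0.29. Jup, plakoglobin, was also called lower, by 0.30 ± 0.10 (adjusted p = 0.0457). The desmosomal plakophilins went the other way. Pkp1 was at 1.93, 1.13 and 2.1 in sham and 118, 49.2 and 58.4 in injured arteries (4.72 ± 0.46, on 5 sham reads), and Pkp2 rose by 1.04 ± 0.23. The call of Pkp2 was lost with quantile normalisation and with scaling on ribosomal protein genes (0.53 to 0.82). Cdh11, a cadherin of mesenchymal cells, was at 352, 389 and 264 against 1487, 1273 and 2460 (2.33 ± 0.25).

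The matrix programme was unequal between fibrillar and basement membrane genes. Of 20 collagen chains outside the basement membrane 15 were higher and 1 lower (median 1.55), and the list's share went from 0.98% ± 0.08 to 3.31% ± 0.78 of the library. Col3a1, type III collagen (chromosome 1, 45311538 to 45349706), was at 51064, 43176 and 39199 in sham and 164549, 128350 and 218558 in injured arteries, the largest gain in counts of any gene (1.91 ± 0.29, adjusted p = 0.0011). Col1a2 and Col1a1, the chains of type I collagen, were next, rising by 1.63 ± 0.29 and 2.02 ± 0.26. Col5a3, a fibril nucleator, rose by 3.17 ± 0.14 with little spread, at 216, 251 and 241 against 2462, 2102 and 1857. The 1 member that fell, Col22a1, was at 35.1 or less in every library. Its call was lost without sham 2 (-1.33), without sham 3, or without sham 3 and injured 2 together.

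Basement membrane genes moved down more often: 10 of 21 were lower and 3 higher (median -0.51). Col4a1 and Col4a2, the chains found in all basement membranes, were not called, with intervals of -0.31 to 0.45 and -0.47 to 0.35. The minor chains fell, Col4a6 from 4269, 4316 and 4051 to 282, 232 and 386 (-3.84 ± 0.18), and Col4a3 by 2.33 ± 0.38. Lamc3, a laminin chain, fell by 3.56 ± 0.26, at 635, 808 and 660 against 69.9, 38.2 and 74. The 3 that rose were the laminin chain Lamb1 (535, 401 and 725 against 1978, 2024 and 3058, a rise of 2.10 ± 0.24) and the nidogens, linkers of laminin to collagen IV, Nid1 (1.42 ± 0.15) and Nid2 (1.91 ± 0.28).

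**Figure D3:**
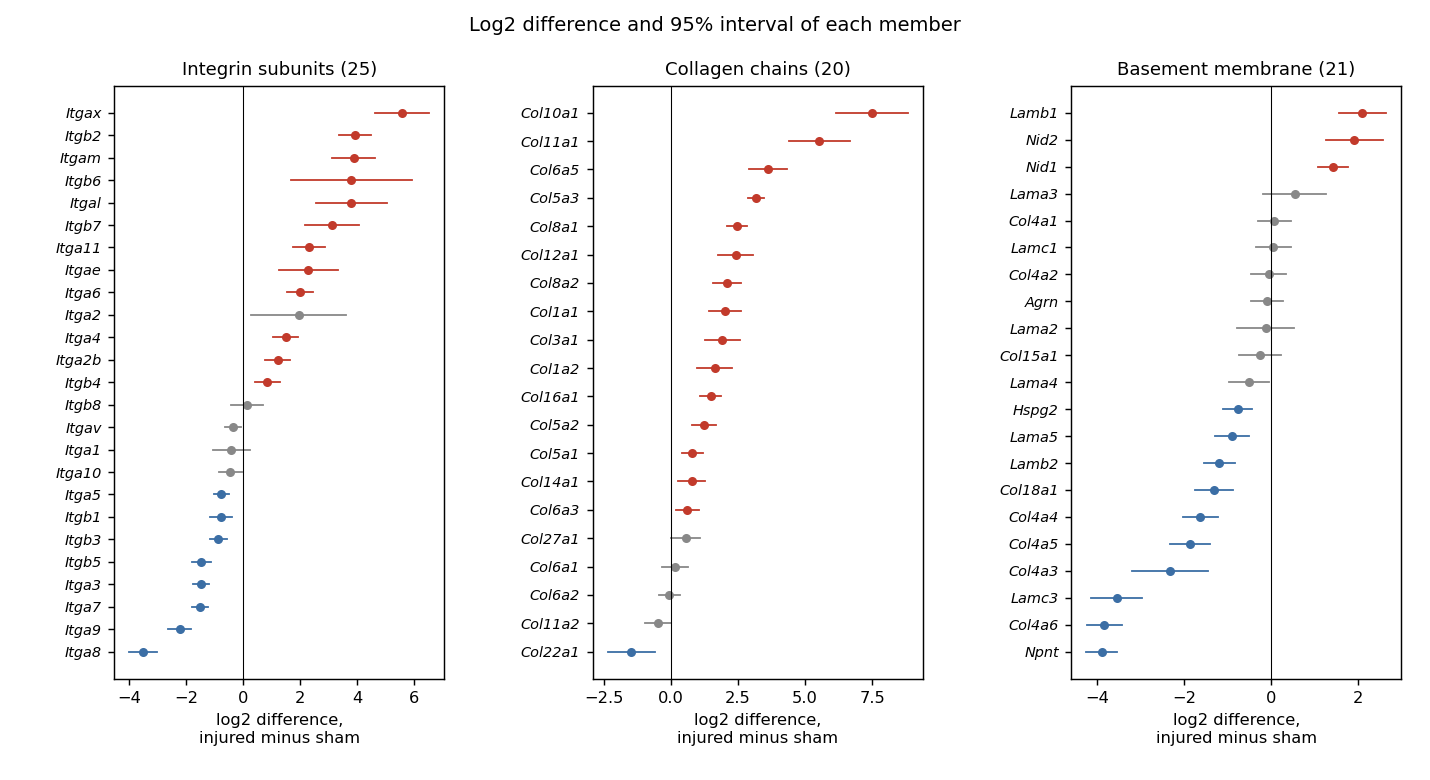
Log2 difference with its 95% interval for each integrin subunit (25), collagen chain (20) and basement membrane gene (21); red marks a call higher, blue lower, grey none. The leukocyte subunits lie on the right, as do others such as Itga11 and Itga6, and Itga8 and Itga9 lie at the far left. The collagen chains lie mostly to the right and Npnt, Col4a6 and Lamc3 to the left.

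Genes of cartilage and of modulated smooth muscle were higher in 15 of 24 and lower in 3 (median 1.09). Spp1, osteopontin, a matrix protein of bone and of modulated cells, was at 86.8, 101 and 89.1 in sham and 6462, 6941 and 3139 in injured arteries (5.81 ± 0.28, adjusted p = 1.07e-05). Col10a1, the collagen of hypertrophic cartilage (chromosome 10, 34389981 to 34397085), was at 4.82, 1.13 and 7.34 against 874, 437 and 1575 (7.49 ± 0.59). Col2a1, the main collagen of cartilage, rose by 6.08 ± 0.31 and Col11a1, its fibril partner, by 5.53 ± 0.50. The skeletal transcription factor Sox9 was at 69.5, 41.8 and 58.7 against 305, 174 and 127 (1.75 ± 0.34), and Runx1 at 68.5, 88.2 and 72.4 against 1421, 924 and 701 (3.66 ± 0.25). Acan, the cartilage proteoglycan, rose by 2.33 ± 0.15, while its link protein Hapln1 fell by 4.44 ± 0.43, at 160, 148 and 197 against 3.44, 6.37 and 13.2. The members that fell were Alpl, a phosphatase needed for mineral to form, at 248, 283 and 288 against 126, 134 and 148, Cytl1 and Cd200. Mgp, an inhibitor of calcification ranked 10th per exon length in both groups, was not called. Tnc, tenascin C, was at 3463, 2759 and 2176 against 3305, 1680 and 2667, with overlapping groups (-0.16 ± 0.26, interval -0.75 to 0.43).

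Elastic fibre genes divided, 8 of 22 higher and 6 lower, against 20.6 and 16.8% of all genes. Eln, the gene of elastin (chromosome 5, 134702593 to 134747323), was at 71382, 47869 and 29475 in sham and 69722, 75733 and 73044 in injured arteries. The sham libraries spread widely while the injured libraries were close together, and the difference of 0.65 ± 0.32 was not called (adjusted p = 0.153). Fbn2, a fibrillin of developing vessels, was at 1.93, 0 and 3.15 against 994, 196 and 267 (7.35 ± 0.71, on 5 sham reads), and Mfap2, a microfibril protein, rose by 2.18 ± 0.25. Ltbp1, which stores latent TGF-beta in matrix, fell by 1.63 ± 0.16, while its relative Ltbp2, which binds no TGF-beta, rose by 1.67 ± 0.16. Of 26 proteoglycan and hyaluronan genes 9 were higher and 8 lower, against those same shares of all genes. The small proteoglycans that regulate collagen fibrils went apart: Lum (lumican) rose by 2.17 ± 0.18 and Dcn (decorin) by 1.24 ± 0.21, and Ogn (osteoglycin) and Prelp fell by 1.64 ± 0.18 and 1.62 ± 0.15. The medians of both lists, 0.18 and 0.22, changed sign when libraries were scaled on ribosomal protein genes, which moved the median of all genes to -0.23.

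Genes of matrix metalloproteinases and their inhibitors were higher in 10 of 18 and lower in 3 (median 0.85). Mmp12, the elastase of macrophages (chromosome 9, 7344381 to 7369499), was at 4.82, 2.26 and 6.29 in sham and 1376, 3250 and 1005 in injured arteries (8.32 ± 0.46, adjusted p = 1.57e-05). Mmp14, a membrane-bound collagenase that activates pro-Mmp2, was at 1376, 1119 and 1018 against 14296, 7609 and 6540 (2.94 ± 0.27), and Mmp2 itself rose by 2.15 ± 0.22. Timp1, an inhibitor of these enzymes, rose by 2.36 ± 0.28. Reck, another inhibitor, anchored in the membrane, fell by 1.15 ± 0.17, as did the metalloproteinases Mmp17 (-1.60 ± 0.12) and Mmp23 (-1.01 ± 0.16). Of 19 genes of lysosomal proteases and their inhibitors 11 were higher, and 7 without sham 3 and injured 2. Ctss, cathepsin S of antigen-presenting cells, rose by 4.88 ± 0.24 and Ctsk, which cuts collagen and elastin, by 2.11 ± 0.15.

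Mitosis genes were higher almost without exception, 29 of 30, with a median of 2.45. Mki67, carried by dividing cells (chromosome 7, 135689784 to 135716361), was at 66.6, 78 and 61.9 in sham and 584, 766 and 668 in injured arteries (3.27 ± 0.17, adjusted p = 1.33e-05). Top2a, topoisomerase II alpha, rose by 3.01 ± 0.17 and Cdk1, the kinase of mitotic entry, by 3.51 ± 0.27. Ube2c, which helps destroy cyclins, was at 44.4, 38.4 and 72.4 against 410, 1321 and 159, highest in injured 2. The exception was Anln, anillin, an actin-binding protein of the cleavage furrow, at 1045, 885 and 735 against 293, 355 and 363 (-1.39 ± 0.16). Even after the rises these genes were low: the 30 together took 0.0107% ± 0.0011 of the sham and 0.0370% ± 0.0053 of the injured libraries. Without sham 3 and injured 2, 25 were called higher.

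The element CHR (TTTGAA), through which the DREAM complex holds mitotic genes silent in resting cells, was in 20 of 27 promoter windows of the mitosis list (74.1%, 26 of 30 genes matched, both strands searched), against 17.9% of all windows. The bases before the start of 2 members that rose, with this element in capitals (Cdk1 at chr10:69352913-69353162, minus strand; Ube2c at chr2:164769679-164769928, plus strand), show it close to the start:
Cdk1: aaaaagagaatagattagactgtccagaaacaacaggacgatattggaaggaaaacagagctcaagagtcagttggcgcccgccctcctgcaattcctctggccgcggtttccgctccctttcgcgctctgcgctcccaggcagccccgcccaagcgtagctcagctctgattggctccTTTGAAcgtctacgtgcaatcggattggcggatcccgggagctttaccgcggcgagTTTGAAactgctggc
Ube2c: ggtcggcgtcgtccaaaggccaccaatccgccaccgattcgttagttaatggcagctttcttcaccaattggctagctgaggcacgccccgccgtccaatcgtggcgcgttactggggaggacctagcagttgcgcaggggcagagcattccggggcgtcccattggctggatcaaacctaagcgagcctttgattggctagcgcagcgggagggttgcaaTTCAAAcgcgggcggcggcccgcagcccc
It lies 71 and 15 bases before the start in Cdk1 and, on the other strand as TTCAAA, 29 bases before it in Ube2c. It was in 15.8% of the windows of genes called higher, 10.7% of those of genes called lower and 11.8% of those of genes not called.

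The lists for earlier steps of the cycle had smaller medians. Of 30 DNA replication genes 15 were higher and 1 lower (median 0.60). The higher count was 8 without sham 3 and injured 2, and 4 with scaling on ribosomal protein genes. Rrm2, which makes deoxynucleotides, rose by 1.92 ± 0.21, and Tyms, thymidylate synthase, by 1.10 ± 0.19. Mcm5, a subunit of the replicative helicase, was at 114, 128 and 130 against 219, 244 and 240 (0.91 ± 0.15), whereas Mcm6, of the same helicase, was at 1168, 1133 and 990 against 599, 664 and 711 (-0.74 ± 0.12). Of 20 regulators of G1 and S phase 10 were higher, among them the proto-oncogene Myc (1.39 ± 0.18), E2f1 (1.46 ± 0.18) and the cyclin Ccnd1 (0.92 ± 0.13). The 3 called lower, Ccnd2, Ccnd3 and Rbl2, each lost the call without sham 1, without sham 2, without sham 3 or without injured 2. With scaling on ribosomal protein genes 6 of these regulators were higher, and Ccnd1 and Mcm5 were not called (0.69 each). Among CDK inhibitors and p53 targets 6 of 17 were higher and 2 lower, against 20.6 and 16.8% of all genes. Without sham 3 and injured 2 together 6 were higher and 0 lower. Cdkn1a, p21, was at 607, 450 and 594 against 1234, 1062 and 795 (0.89 ± 0.19), and the DNA damage gene Gadd45a was higher by 1.59 ± 0.27.

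**Figure D4:**
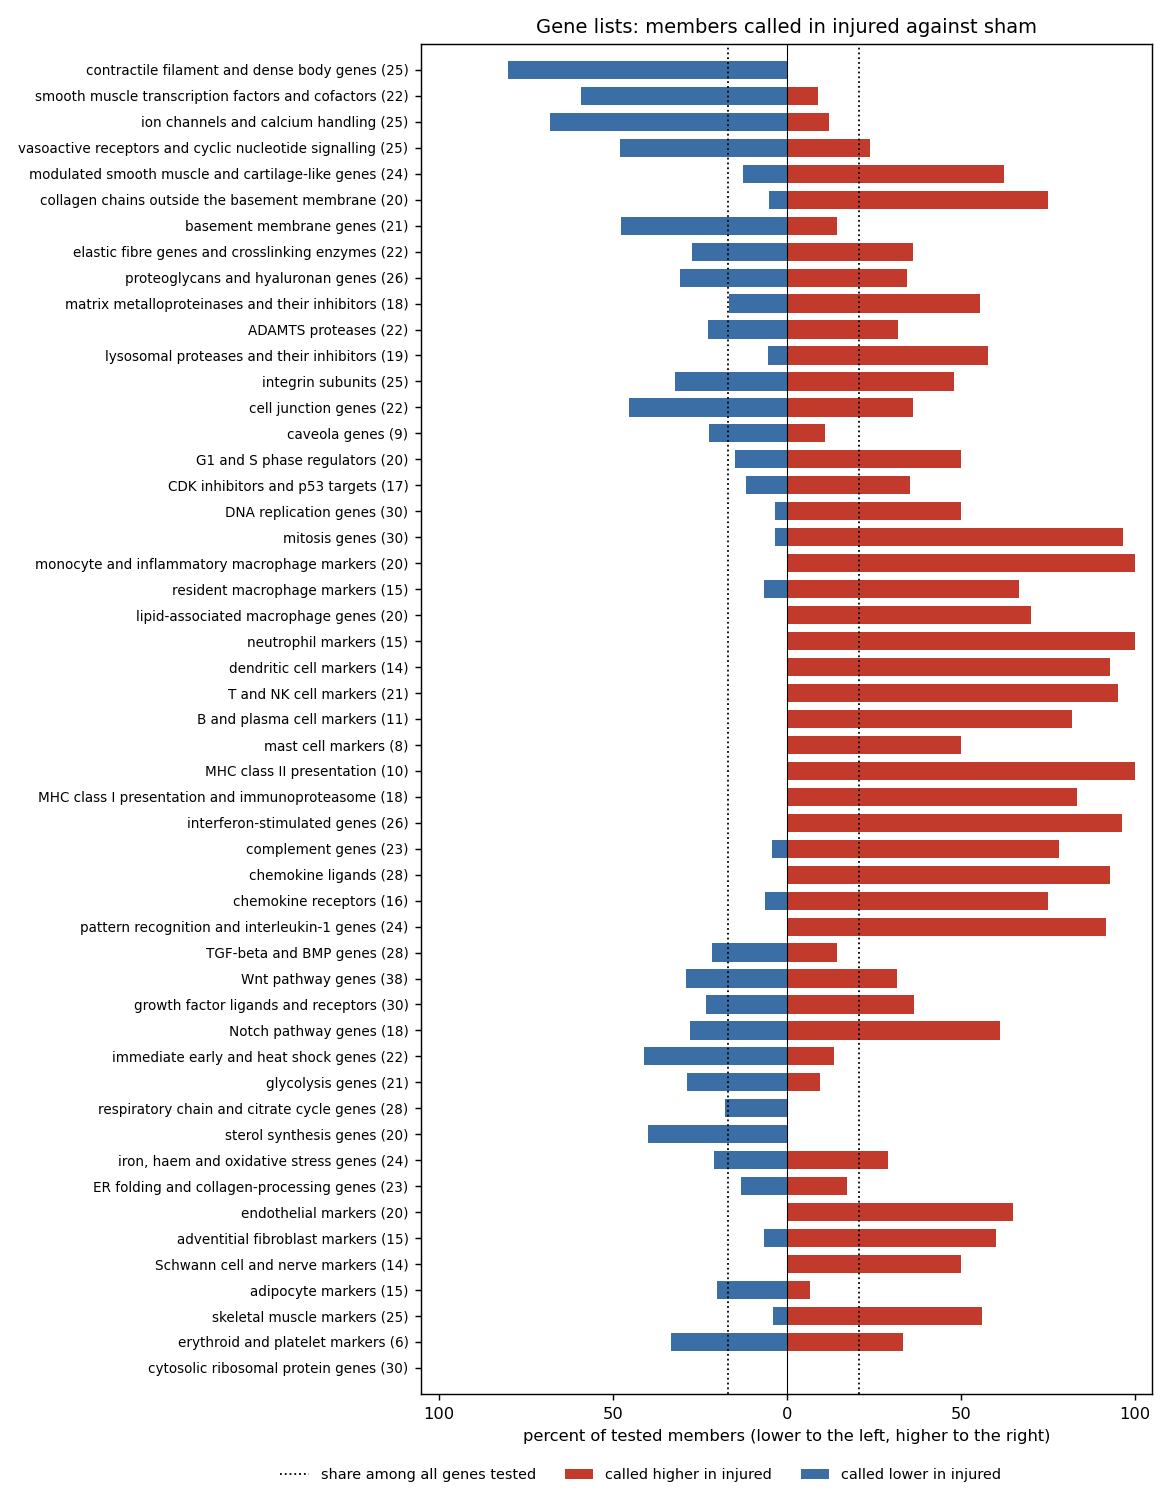
Percent of the tested members of each of 51 gene lists called higher (red, right) and lower (blue, left); the number of members is in brackets, and dotted lines mark 20.6 and 16.8%, the shares among all genes tested. Immune lists and mitosis fill the right side, contractile, channel and transcription factor lists the left.

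Leukocyte genes were among the steepest rises, in media whose lumen had been rinsed to remove such cells. All 20 monocyte and inflammatory macrophage markers tested were higher, with a median of 3.46, and together they went from 0.0213% ± 0.0038 to 0.225% ± 0.049 of the library. Ccr2, the receptor that draws monocytes out of blood (chromosome 9, 124101950 to 124113557), was at 54, 56.5 and 45.1 in sham and 2398, 2666 and 1708 in injured arteries (5.40 ± 0.19, adjusted p = 3.56e-06). Lyz2, lysozyme of myeloid cells, was at 1924, 1642 and 2515 against 19469, 25424 and 15881 (3.32 ± 0.21) and was among the 10 largest gains in counts of called genes whose groups did not overlap. Fcgr4, an antibody receptor, rose by 5.63 ± 0.51, Cybb, the oxidase subunit of phagocytes, by 4.67 ± 0.30, and Cd68 by 3.44 ± 0.16. All 20 were also called in each fit that left out 1 library.

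Of 15 markers of resident macrophages 10 were higher and 1 lower (median 1.20). Mrc1, the mannose receptor, was at 304, 337 and 392 against 2564, 2228 and 2518 (2.82 ± 0.13). Cbr2, a carbonyl reductase, fell, from 6156, 6265 and 5167 to 1034, 1088 and 957 (-2.51 ± 0.12), at a sham level far above that of Mrc1. Of 20 genes of lipid-laden macrophages 14 were higher and none lower. Trem2, their lipid receptor, was at 23.2, 19.2 and 24.1 against 991, 835 and 541 (5.05 ± 0.25), Msr1, a scavenger receptor, rose by 3.44 ± 0.24, and Apoe, apolipoprotein E, was another of these gains, from rank 155 to 24 per exon length (2.08 ± 0.21).

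Neutrophil markers were higher in 15 of 15 tested, with 2 more of the list not in the table, and had the largest median of any list (4.36). S100a9, a calcium-binding protein of neutrophils, was at 6.75, 5.65 and 19.9 in sham and 379, 2340 and 485 in injured arteries (6.20 ± 0.70), highest in injured 2. Ngp and Ltf, granule proteins made by precursors in the marrow, rose by 6.42 ± 0.91 and 5.45 ± 0.76 and were also highest in injured 2, at 725 and 607. Their sham values were 7.34 or less, on 9 reads in all for Ngp and 11 for Ltf. Markers of dendritic cells were higher in 13 of 14, of T and NK cells in 20 of 21, and of B and plasma cells in 9 of 11. The table holds no gene with a mean under 9.22, so a marker near 0 in sham arteries could enter it only through the injured group, and these counts describe the members measured without supporting a difference. Il7r, a receptor of lymphocytes, was at 3.86, 3.39 and 6.29 against 164, 253 and 190 (5.22 ± 0.33), and Irf8, a factor of dendritic cells and monocytes, rose by 3.80 ± 0.26.

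Antibody transcripts were abundant among them. Igha, the heavy chain of IgA, was at 50.2, 78 and 67.1 in sham and 5857, 7763 and 3342 in injured arteries (6.36 ± 0.30, adjusted p = 1.02e-05). Jchain, which joins IgA into dimers, was at 45.4, 41.8 and 46.1 against 1889, 2219 and 924 (5.11 ± 0.30), and Igkc, the kappa light chain, rose by 4.65 ± 0.31. Ighm, the heavy chain of IgM, rose less, by 1.45 ± 0.14, at 336, 354 and 371 against 937, 1163 and 833. Among 19 antibody variable segments tested, 13 were called higher and none lower, against 20.6 and 16.8% of all genes. A segment near 0 in sham arteries could enter the table only through the injured group, so this count does not support a difference. Mast cell markers were higher in 4 of 8 tested, and in 7 without sham 3, with Kit at 60.8, 57.7 and 78.7 against 315, 265 and 266.

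Genes of antigen presentation were higher. All 10 genes of MHC class II presentation tested were higher (median 3.16), from H2-Ab1 at 509, 1179 and 512 against 9089, 12539 and 5332 (3.65 ± 0.39) to their master regulator Ciita at 21.2, 69 and 15.7 against 245, 461 and 266 (3.40 ± 0.51). Sham 2 was the highest sham library in both, and injured 2 the highest injured one. The genes of MHC class I and the immunoproteasome, made by most cells, rose less, 15 of 18 with a median of 1.08, and 9 of 18 without sham 3 and injured 2. Tap1, the peptide transporter, rose by 1.82 ± 0.38, and Nlrc5, the class I regulator, by 1.90 ± 0.35.

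Interferon-stimulated genes were higher in 25 of 26 (median 2.56). Mx1, an antiviral GTPase, was at 0.965, 15.8 and 13.6 in sham and 420, 470 and 161 in injured arteries (5.34 ± 0.80), and Oas3, a sensor of double-stranded RNA, rose by 5.16 ± 0.62. Cxcl10, a chemokine for T cells, was at 4.82, 58.8 and 7.34 against 614, 647 and 189 (4.89 ± 0.85). Injured 3 was the lowest injured library in all 3 genes. The interferon response element ISRE (GAAANNGAAA, both strands) was in 13 of 23 promoter windows of the list (56.5%, 20 of 26 genes matched) and in 3.44% of all windows. The shares were 5.64% for genes called higher, 2.32% for genes called lower and 2.68% for those not called. The bases before the start of Isg15, a ubiquitin-like protein (chr4:156200819-156201068, minus strand), and Ifit1, an RNA sensor (chr19:34640639-34640888, plus strand), both called higher, carry it more than once, in capitals:
Isg15: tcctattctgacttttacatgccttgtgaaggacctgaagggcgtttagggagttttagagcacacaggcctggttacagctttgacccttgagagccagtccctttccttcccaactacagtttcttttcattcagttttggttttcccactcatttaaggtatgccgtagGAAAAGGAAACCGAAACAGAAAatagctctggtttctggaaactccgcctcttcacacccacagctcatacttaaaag
Ifit1: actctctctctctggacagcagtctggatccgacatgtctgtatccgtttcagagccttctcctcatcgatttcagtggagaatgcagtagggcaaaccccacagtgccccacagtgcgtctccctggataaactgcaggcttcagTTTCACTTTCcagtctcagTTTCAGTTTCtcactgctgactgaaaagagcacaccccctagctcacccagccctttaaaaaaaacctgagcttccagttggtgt
In Isg15 there are 3 overlapping matches, starting 78, 72 and 66 bases before the start, and in Ifit1 2 matches on the other strand, at 104 and 85. Ifit1 was at 131, 185 and 141 in sham and 2725, 2904 and 603 in injured arteries, and Isg15 at 61.8, 138 and 70.3 against 961, 1024 and 231. Both groups were apart in each gene, with injured 3 again the lowest after injury.

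Chemokines were higher in 26 of 28 tested (median 3.19). A member near 0 in sham arteries could enter the table only through the injured group, so this count does not support a difference. Ccl8, a ligand of Ccr2 and other receptors, was at 33.8, 22.6 and 32.5 against 1303, 1227 and 558 (adjusted p = 2.47e-05), Ccl7 rose by 4.02 ± 0.46, and Ccl2, the main monocyte attractant, was at 28, 20.4 and 16.8 against 509, 342 and 168 (3.80 ± 0.40). Cxcl2, a neutrophil attractant, was highest in injured 2, at 947 against 170 and 42.8 in the other injured libraries. Of 16 chemokine receptors 12 were higher, among them Cx3cr1 of monocytes (4.98 ± 0.40) and Cxcr4 (4.48 ± 0.27). Among genes with a mean of at least 50 the count was 7, and the limit given for the chemokines applies to both counts. The 1 that fell, Ccrl2 (-0.82 ± 0.22), lost its call without sham 1 (-0.79) or sham 2 (-0.75).

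Genes of pattern recognition and interleukin-1 were higher in 22 of 24 (median 1.76). Members near 0 in sham arteries could again enter the table only through the injured group, so the count does not support a difference. Il1b, interleukin-1 beta, was at 6.75, 1.13 and 2.1 in sham and 349, 728 and 206 in injured arteries (6.66 ± 0.58), and its soluble antagonist Il1rn at 2.89, 0 and 1.05 against 314, 698 and 126 (7.25 ± 0.69, on 4 sham reads). Saa3, an acute-phase protein of macrophages and fat (chromosome 7, 46711998 to 46715700), had the largest log2 rise of the named genes, from 3.86, 0 and 2.1 to 2397, 1606 and 392 (8.86 ± 0.75, on 6 sham reads). Acod1, which makes itaconate in activated macrophages, had 1 read in all sham libraries and was at 102, 522 and 21.4 after injury, highest in injured 2. Complement genes were higher in 18 of 23 and lower in 1 (median 1.90). Among those higher were the receptors C3ar1 (3.66 ± 0.19) and C5ar1 (3.06 ± 0.31) and the recognition chains C1qb (3.17 ± 0.22) and C1qa (2.99 ± 0.24). The largest rise in the list was 5.06. Cd59a, which shields cells from the membrane attack complex, fell by 0.54 ± 0.13, a call lost without sham 2 (-0.45) or without sham 3 and injured 2 together (-0.60), while 4 complement genes were lower without injured 3.

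**Figure D5:**
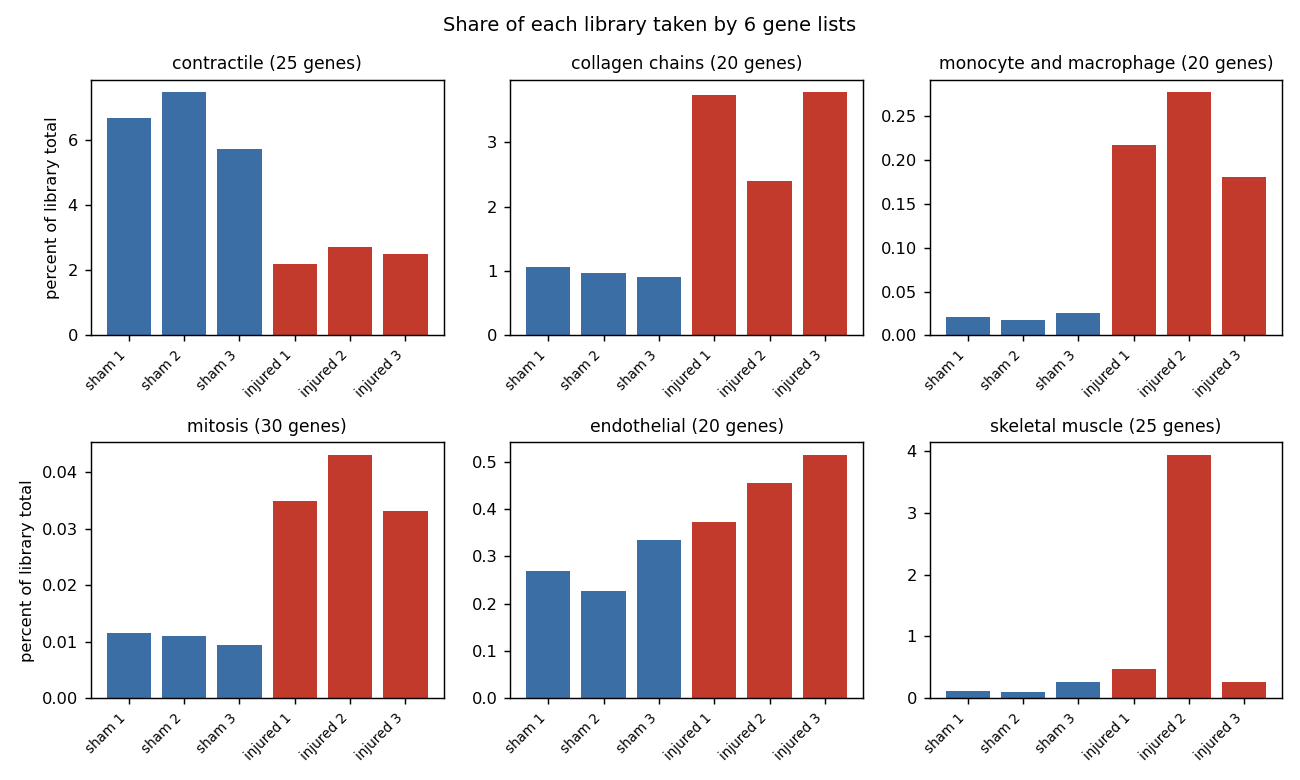
Percent of each library's total taken by 6 gene lists in the 3 sham (blue) and 3 injured (red) libraries, each panel from 0. The contractile share is lower in every injured library and the collagen, macrophage and mitosis shares higher, while the skeletal muscle share is at 3.95% in injured 2 alone.

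Signalling pathways held changes of both directions. In the Wnt pathway secreted inhibitors and R-spondin receptors set how cells read Wnt ligands. Here 12 of 38 genes were higher and 11 lower, against 20.6 and 16.8% of all genes. The median of 0.28 changed sign among genes of a mean of at least 50. The antagonist Wif1 fell like Sost, from 406, 288 and 215 to 32.1, 9.1 and 9.87 (-4.26 ± 0.47), and so did the ligand Wnt16 (603, 390 and 298 against 90.5, 35.5 and 40.3) and the antagonists Frzb (-1.75 ± 0.24) and Dkk3 (-1.30 ± 0.15). The antagonist Sfrp4 rose by 1.84 ± 0.14. The receptors Fzd2, Fzd7 and Lgr4 fell by 1.37 ± 0.12, 0.95 ± 0.15 and 0.86 ± 0.13.

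Of 28 TGF-beta and BMP genes 4 were higher and 6 lower, shares near those of all genes, with a median of -0.09. Tgfb1 was at 839, 673 and 768 against 1347, 1248 and 1074 (0.69 ± 0.13), its receptor Tgfbr1 fell by 0.79 ± 0.12, and the BMP receptor Bmpr1a fell by 1.26 ± 0.15. Tgfb1 was not called with scaling on ribosomal protein genes (0.46). Among 30 growth factor genes 11 were higher and 7 lower, against 20.6 and 16.8% of all genes. Igf1, a growth factor of mesenchymal cells and macrophages, was at 1116, 1161 and 1464 against 12564, 7575 and 9398 (2.96 ± 0.19), with its binding proteins Igfbp2 and Igfbp3 each higher by 2.86. Pdgfd fell by 1.74 ± 0.20, and Fgfr2 and Fgf2 by 1.45 ± 0.22 and 0.92 ± 0.16.

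Notch genes were higher in 11 of 18 and lower in 5, though 7 were higher without sham 3 and injured 2 and 3 with scaling on ribosomal protein genes. The endothelial ligand Dll4 was at 108, 97.2 and 155 against 417, 502 and 590 (2.07 ± 0.21), while Hey2 and Heyl, Notch targets of arterial smooth muscle, fell by 1.24 ± 0.12 and 1.37 ± 0.16. Immediate early and heat shock genes were lower in 9 of 22 and higher in 3, against 16.8 and 20.6% of all genes. The heat shock genes Hspa1a, Hspa1b and Hspb1 fell by 2.24 ± 0.13, 1.62 ± 0.17 and 1.57 ± 0.19, with Hspa1a at 2079, 1697 and 2066 against 462, 368 and 406. Egr2, a factor of macrophages and Schwann cells, rose by 2.12 ± 0.19. The other 2 higher calls, Junb and Fosl2, were each lost without sham 1, without sham 2, without sham 3 or without injured 1.

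Markers of the other cell types in and around the wall give the composition against which these changes stand. Of 20 endothelial markers 13 were higher and none lower (median 0.70), and 7 with scaling on ribosomal protein genes. Kdr, a VEGF receptor, was at 501, 430 and 790 against 1659, 1614 and 2037 (1.67 ± 0.22), and Emcn and Robo4 rose by 1.30 ± 0.20 and 1.54 ± 0.17. Pecam1, carried by endothelium and leukocytes, was at 9605, 8327 and 12621 against 8535, 10695 and 11286 (0.01 ± 0.19, interval -0.42 to 0.44). Adventitial fibroblast markers were higher in 9 of 15, with Dpp4 up by 1.82 ± 0.16 and Meox1 by 1.79 ± 0.24, while Pi16, a marker of adventitial progenitors, fell from 9407, 8808 and 11930 to 4082, 4253 and 4647 (-1.20 ± 0.14). Schwann cell and nerve markers were higher in 7 of 14, in 3 without sham 1 and in 4 without sham 2. The part of these cells in the matrix and signalling results was not tested.

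Markers of tissues next to the artery varied with single libraries. Skeletal muscle markers were higher in 14 of 25 (median 3.16), but in 2 without sham 1 or without sham 2, in 9 without injured 1 and in 8 without injured 2. The count was 18 without sham 3, and 19 without injured 3 or without sham 3 and injured 2 together. Their spread was wide: Myh4, the myosin of fast fibres, was at 2237, 1614 and 7714 in sham and 13596, 156100 and 9749 in injured arteries. The highest value by far was that of injured 2, and sham 3 was the highest sham library. Tcap, a protein that binds titin in sarcomeres, went against the list, at 8626, 8708 and 5914 against 1064, 4563 and 299, and Mylk4, a myosin kinase gene outside the lists and chosen after its values were seen, behaved alike, at 9461, 9859 and 9370 against 229, 3371 and 227. Both were highest after injury in injured 2. The call of Tcap (-2.75 ± 0.80) was lost without any 1 of the sham libraries or without injured 1. Brown fat genes fell: Ucp1, the uncoupling protein, was at 960, 773 and 5128 in sham and 18.3, 23.7 and 32.1 in injured arteries (-5.96 ± 0.63), and Cidea, a lipid droplet protein, fell by 4.09 ± 0.56. Plin4, a lipid droplet protein of fat cells, was the remaining adipocyte marker that fell, at 9419, 12060 and 11623 against 4722, 4078 and 6008 (-1.17 ± 0.17). Adipoq, adiponectin, was at 1730, 1456 and 3453 against 3929, 3012 and 5266, and was the 1 of 15 adipocyte markers called higher, with overlapping groups. It lost that call without any 1 of sham 1, sham 2, injured 1 or injured 3, whereas 8 markers were higher without sham 3 and 10 without sham 3 and injured 2 together. The 3 lower calls held in each of these fits.

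Metabolic lists held few large changes. Of 28 respiratory chain and citrate cycle genes 5 were lower, a share near the 16.8% of all genes, and none higher (median -0.33), a count that ran from 2 (without sham 3) to 9 (without injured 2). Of 21 glycolysis genes 6 were lower and 2 higher, against 16.8 and 20.6% of all genes. Ldhb, a lactate dehydrogenase chain of oxidative tissue, was at 1973, 1902 and 2502 against 480, 461 and 425 (-2.21 ± 0.13). Hk3, the hexokinase of leukocytes, rose by 3.42 ± 0.28. The list's median of -0.10 changed sign with quantile normalisation and with sample weights, and 4 genes were higher without injured 3. Sterol synthesis genes were lower in 8 of 20 and higher in none, among them the regulator Srebf2 (-1.20 ± 0.11) and the enzyme Lss (-1.14 ± 0.20).

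Among iron and oxidative stress genes 7 of 24 were higher and 5 lower, against 20.6 and 16.8% of all genes. The lower count was 3 without any 1 of the sham libraries, without injured 1, or without sham 3 and injured 2 together. Hmox1, which breaks down haem, was at 162, 130 and 186 against 1446, 1136 and 667 (2.70 ± 0.27), and Slc40a1, the iron exporter, rose by 2.94 ± 0.32. Nox4, an oxidase of smooth muscle that makes hydrogen peroxide, was at 8090, 7180 and 6677 against 1321, 1261 and 1754 (-2.35 ± 0.15), and Sod3, the superoxide dismutase of the extracellular space, fell by 1.82 ± 0.14. Of 23 genes of ER folding and collagen processing 4 were higher and 3 lower, against 20.6 and 16.8% of all genes, and 2 were higher without sham 3 and injured 2. P4ha3, a collagen prolyl hydroxylase, was at 17.4, 9.05 and 23.1 against 612, 523 and 633 (5.16 ± 0.32), while P3h2, which modifies basement membrane collagen, fell by 2.12 ± 0.24. None of 30 cytosolic ribosomal protein genes was called by limma in the main fit, with 3 at an unadjusted p under 0.05, 0 called by edgeR and 4 by DESeq2. Limma called 16 higher without injured 3, 16 with sample weights and 12 with quantile normalisation. Their median was 0.21.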

How the data were processed

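RNA was sequenced from femoral artery media in 6 libraries, 3 sham and 3 injured. The authors deposited a table of normalised counts per gene, a signal in which every library's reads were scaled by a factor of its own, as read from the values: division by the value of 1 read returned whole reads for 100% of them within 0.01. The build was mm10 (GRCm38), per the submitters' processing notes. No aligner, counting program or strand setting is given in the sources used here, so overlapping and antisense genes, and near-identical copies, may share reads. The deposited fold changes and p-values were not used.

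Genes with a mean of at least 10 were tested with limma 3.58.1 (R 4.3.3, trended variance) on log2(normalised count + 1), with group as the only term, two-sided, and Benjamini-Hochberg adjustment over 16278 genes at 0.05. The table holds 16315 genes, the lowest with a mean of 9.22, so genes low in both groups are absent. The script was tested on simulated data. Coordinates and exon lengths came from GENCODE M21, and promoters from RefSeq (GRCm38.p6). Alternatives were other pseudocounts (0.5 and 5), other filters (none, or a mean of at least 50), no trend, sample weights, quantile normalisation, scaling on ribosomal protein genes, a replicate block, each library left out, and limma-voom, edgeR 4.0.16 and DESeq2 1.42.0 on recovered reads.

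The comparison and its gene lists were chosen with earlier results of these data known. Genes named are a fixed set, the 10 largest gains, losses, rises and falls of called genes without overlap (a mean of at least 100 for rises and falls), and up to 4 called members of a list whose mean reached 100 and whose groups did not overlap, plus called members that moved against it. Other members are named where not called, or beside a named gene. Some genes the rule names are not reported here.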

Additional observations from a re-analysis of the deposited data

How the results depend on the processing

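Of 308 genes named by rule, 249 kept their side of the threshold in all 19 alternatives, and no direction of a called gene turned. The number of genes called, 6076, became 9621 with sample weights, of which 4616 were lower. The 3346 higher calls became 2156 with scaling on ribosomal protein genes. The 2730 lower calls became 1604 without sham 3 and injured 2 together, and ran from 1747 (without sham 2) to 3382 (without injured 3) with 1 library left out. Higher calls then ran from 2579 to 3930 and all calls from 4350 to 7312. edgeR called 6055 genes, DESeq2 6412 and limma-voom 5797. With the replicate number as a block 5762 genes were called (3289 higher, 2473 lower). Deviations of same-numbered libraries correlated at 0.05, -0.06 and -0.08, and not every sample correlated best with its own number. With 3 libraries a group these values cannot settle whether the numbers pair the samples. Genes with a mean under 100 had a median SE of 0.40 log2 against 0.15 above it, so a difference of a given size was harder to call among them. The part of depth in this was not tested.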

Other observations

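By biotype in the GENCODE annotation, protein-coding genes were called in 39.2% of 14124, long intergenic RNAs in 29.2% of 367 (59 higher, 48 lower), antisense RNAs in 20.9% of 474 (43 higher, 56 lower) and processed pseudogenes in 14.3% of 231. All 5 T cell receptor constant genes and 9 of 10 antibody constant genes in the table were called higher. The use of strand is not given, so reads of antisense genes and their partners cannot be told apart.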
